A study of Mus musculus with 11 samples.

Results

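The genes described here are 47 that write, erase or help to place methyl groups on lysines of histone H3. They were chosen from a list of lysine methyltransferases, lysine demethylases and subunits of their complexes, matched by Entrez gene ID to mouse symbols. All 47 were present in both deposited count tables, which hold 24809 gene IDs for RNA and 24541 for H3K4me3. By the lysine they are best known for, 22 belonged to H3K4, 11 to H3K9, 6 to H3K27, 7 to H3K36 and 1 to H3K79. The rule used no measured value, though the genes were chosen with earlier results of these data known.

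Granulosa cells, the somatic cells around the oocyte in an ovarian follicle, came from C57BL/6 mice given equine chorionic gonadotropin (eCG) 48 h earlier, or from untreated C57BL/6 mice (0 h). The labels describe eCG as follicle-stimulating hormone. RNA was sequenced from 3 libraries at 48 h and 3 at 0 h, all labelled postnatal day 21 and collected by follicular puncture. H3K4me3 ChIP-seq had 2 libraries at 48 h and 2 at 0 h, with no age in the labels. No untreated mice were sampled at 48 h, so eCG, time and collection cannot be told apart. Pooling of animals is not given in the labels, and p-values measure the spread between libraries.

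Histone methyltransferases move a methyl group from S-adenosylmethionine to a lysine, and demethylases remove it with flavin or with iron and 2-oxoglutarate. Trimethylated H3K4 sits at the starts of active genes, where the MLL and SET1 enzymes place it with a shared core of Wdr5, Rbbp5, Ash2l and Dpy30. Methylated H3K9 and H3K27 are tied to silent chromatin. Polycomb repressive complex 2 (PRC2) places methyl groups on H3K27. H3K36 and H3K79 methylation lie over the bodies of transcribed genes. In the ovary, these enzymes are best studied in the oocyte, and granulosa cells change many genes as a follicle grows under gonadotropin.

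The starts of a few members are shown because CpG-rich starts are the usual sites of H3K4me3. Promoters were those of RefSeq on GRCm38.p6, from 250 bases before to 50 bases after a start, and 32 of the 47 members matched the table. CpG pairs are in capitals. Kmt2a differed in both assays and Setd7 had the largest RNA difference. Kdm4c has an outer start without a CpG and an inner one rich in them. Setdb2 had H3K4me3 with almost no RNA counts.
Kmt2a, chr9:44881240-44881539, minus strand: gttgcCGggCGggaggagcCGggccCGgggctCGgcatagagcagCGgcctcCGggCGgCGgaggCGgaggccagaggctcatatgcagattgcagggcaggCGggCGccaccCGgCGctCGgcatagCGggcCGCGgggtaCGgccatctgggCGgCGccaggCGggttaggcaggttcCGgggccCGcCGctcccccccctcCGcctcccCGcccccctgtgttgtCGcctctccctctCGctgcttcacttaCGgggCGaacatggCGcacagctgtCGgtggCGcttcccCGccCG
Setd7, chr3:51560774-51561073, minus strand: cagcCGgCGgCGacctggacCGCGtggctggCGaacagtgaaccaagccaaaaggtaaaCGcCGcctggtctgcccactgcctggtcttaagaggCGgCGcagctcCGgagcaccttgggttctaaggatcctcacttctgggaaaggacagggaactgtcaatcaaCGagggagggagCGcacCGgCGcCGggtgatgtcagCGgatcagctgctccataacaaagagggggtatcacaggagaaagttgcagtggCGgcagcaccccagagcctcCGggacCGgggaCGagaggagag
Kdm4c, chr4:74242247-74242546, plus strand: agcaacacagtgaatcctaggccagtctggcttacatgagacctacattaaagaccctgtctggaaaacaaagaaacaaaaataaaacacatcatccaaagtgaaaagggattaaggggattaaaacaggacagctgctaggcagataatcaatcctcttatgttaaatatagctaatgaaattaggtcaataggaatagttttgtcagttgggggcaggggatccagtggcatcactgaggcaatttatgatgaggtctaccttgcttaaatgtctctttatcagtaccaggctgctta
Kdm4c, chr4:74251629-74251928, plus strand: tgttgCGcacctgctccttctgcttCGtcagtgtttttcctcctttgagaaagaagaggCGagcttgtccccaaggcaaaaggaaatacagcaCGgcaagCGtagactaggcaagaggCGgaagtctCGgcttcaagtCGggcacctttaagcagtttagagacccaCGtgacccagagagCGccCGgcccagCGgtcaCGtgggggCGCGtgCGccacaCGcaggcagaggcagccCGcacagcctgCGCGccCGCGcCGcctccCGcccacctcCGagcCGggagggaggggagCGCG
Setdb2, chr14:59440831-59441130, minus strand: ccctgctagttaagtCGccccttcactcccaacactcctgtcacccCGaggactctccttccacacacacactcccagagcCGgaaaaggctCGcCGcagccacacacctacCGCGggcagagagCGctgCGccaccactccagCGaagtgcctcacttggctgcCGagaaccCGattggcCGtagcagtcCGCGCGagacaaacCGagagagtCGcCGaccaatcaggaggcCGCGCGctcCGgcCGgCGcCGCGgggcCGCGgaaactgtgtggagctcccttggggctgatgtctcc

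Taking 1 start per gene, the 32 member promoters held a median of 23.5 CpG pairs and 62% G or C, against 7 CpG pairs and 52.7% over the 27025 genes of the table. Their median ratio of observed to expected CpG was 0.852, against 0.389 over all genes. Motifs were searched on both strands. The GC box GGGCGG was in 18 of 32 member promoters (56.2%) and in 35.9% of all promoters. The cAMP response element TGACGTCA was in 1 of 32 (3.12%, in Suv39h2) and in 1.88% of all, and its shorter form TGACG, which also lies within the full element, was in 7 (21.9%) and in 21% of all. The steroidogenic factor 1 motif TCAAGGTCA was in 0 of 32 and in 0.407% of all. These letter matches are descriptions of the windows and not sites of binding.

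Expression is given as CPM, a gene's counts relative to the size of its library after scaling by edgeR's TMM factors. Fold changes are log2 of 48 h over 0 h from edgeR's quasi-likelihood test, with a standard error (SE) and a Benjamini-Hochberg adjusted p over all genes, and a gene was called below 0.05. CPM is not corrected for gene length, so levels are not compared between genes. In RNA, 4585 of 14401 genes tested were called (31.8%), 2282 lower at 48 h (15.8%) and 2303 higher (16.0%). With library size alone in place of TMM the calls were 4222 lower and 1543 higher. RNA libraries held 12013849 to 26343971 counts and H3K4me3 libraries 11989769 to 17968033. Of 12 granulosa markers, 8 were higher and 2 lower at 48 h. Cyp19a1, the aromatase of estrogen synthesis, had 909, 852 and 718 CPM at 48 h and 262, 137 and 231 CPM at 0 h, and Foxl2, a granulosa transcription factor, had 422, 546 and 503 CPM at 48 h and 371, 279 and 357 CPM at 0 h.

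The histone methylation genes that changed in RNA were all lower at 48 h. Of the 46 members tested, 17 were lower at 48 h and 0 were higher, and 29 did not pass the test. Setdb2 failed the count filter with 0, 8 and 5 counts at 48 h and 4, 7 and 3 at 0 h. The median log2 fold change of the 46 members was -0.17, against -0.03 over all 14401 genes, and 39 of 46 were below 0, against 53.3% of all genes. With library size alone 45 of 46 members were below 0, and without 48 h replicate 1 it was 32. Of genes averaging 5 CPM or more, a limit chosen after values were seen, 17.3% were lower and 18.2% higher. At an unadjusted p under 0.05, 21 members were lower and 1, Men1, was higher, and DESeq2 called 18 lower and 1 higher. The 48 h libraries lay wholly below the 0 h libraries in 25 members, against 25.8% of all genes, and wholly above in 1, against 22.1%.

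The number of lower members depended on single libraries. It was 7 without 0 h replicate 3, 9 without 0 h replicate 2 or 48 h replicate 2, and 10 without 48 h replicate 3. It was 17 with 48 h replicate 1 left out and 16 with 0 h replicate 1 left out. Setd7, Ezh1, Smyd3, Setd1b, Smyd2, Setdb1 and Kmt2a were called lower in the main test and in all 12 alternatives run.

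**Figure D1:**
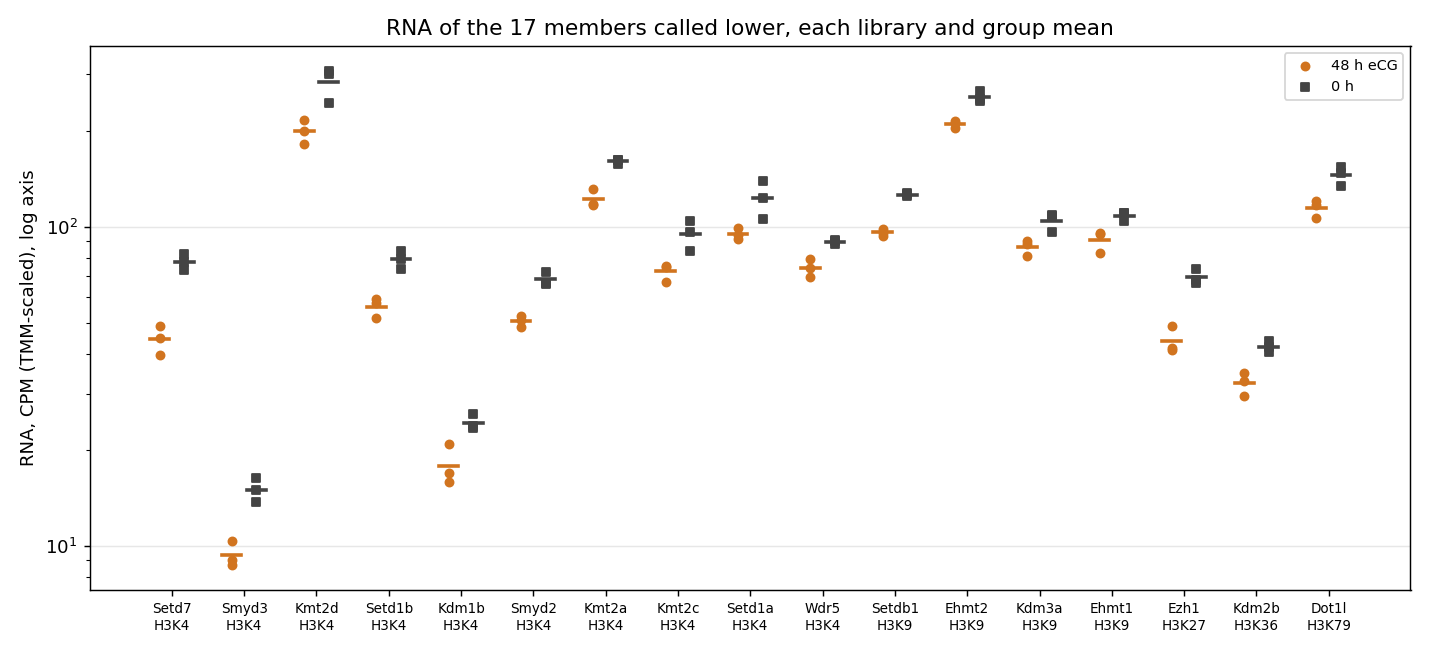
RNA of the 17 members called lower at 48 h, in CPM on a log axis, with each point 1 library, the short line the mean of 3 libraries, and 48 h left of 0 h for each gene. The 48 h points lie below the 0 h points without overlap in every gene shown, with Setd7 averaging 44.5 CPM at 48 h and 77.5 CPM at 0 h.

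The H3K4 writers held 8 of the 17 lower genes, 8 of 11 tested beside 15.8% of all genes. All 11 had a fold change below 0, with a median of -0.43, and 10 of them, all but Kmt2e, had their 48 h libraries wholly below 0 h, beside 25.8% of all genes. The number called lower was 5 without 48 h replicate 2 or 0 h replicate 3, 6 without 48 h replicate 3 or 0 h replicate 2, and 9 without 48 h replicate 1 or 0 h replicate 1. Setd7, which adds a single methyl group to H3K4 and to many non-histone proteins, had 48.8, 39.6 and 44.9 CPM at 48 h and 73.3, 77.3 and 81.9 CPM at 0 h (gene ID 73251, chr3:51515318-51560823). The gene overlaps a lncRNA that averaged 1.12 CPM. All 3 libraries at 48 h lay below all 3 at 0 h, and the log2 fold change was -0.81 ± 0.10 (SE, adjusted p = 0.00085). Smyd3 (gene ID 69726, chr1:178951960-179518053) and Smyd2 (gene ID 226830, chr1:189880492-189922495) are SET and MYND domain enzymes also known for non-histone substrates. Smyd3 had 9.05, 10.4 and 8.71 CPM at 48 h and 14.9, 16.3 and 13.8 CPM at 0 h, a log2 fold change of -0.67 ± 0.13 (SE, adjusted p = 0.00627). Smyd2 had 52.4, 51.2 and 48.3 CPM at 48 h and 66.6, 66.3 and 72.1 CPM at 0 h, a log2 fold change of -0.43 ± 0.08 (SE, adjusted p = 0.00459). These 3 genes stand outside the MLL and SET1 complexes, and none of them overlapped between groups.

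Setd1a and Setd1b are the SET1 enzymes that place most H3K4 trimethylation at promoters. Setd1b (gene ID 208043, chr5:123142040-123168630) had 51.7, 59.2 and 57.5 CPM at 48 h and 73.9, 79 and 84 CPM at 0 h, a log2 fold change of -0.49 ± 0.09 (SE, adjusted p = 0.00404). Setd1a (gene ID 233904, chr7:127777389-127800122) had 94.1, 99.3 and 91.6 CPM at 48 h and 106, 123 and 139 CPM at 0 h, a log2 fold change of -0.37 ± 0.11 (SE, adjusted p = 0.0285). In Setd1a the highest 48 h library was only a little below the lowest 0 h library. Its call failed on leaving out 48 h replicate 2 (0.0688), 48 h replicate 3 (0.114), 0 h replicate 2 (0.0857) or 0 h replicate 3 (0.122), each an edgeR adjusted p, in a range of 0.00601 to 0.122 over all alternatives.

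The MLL enzymes showed the same direction. Kmt2a (gene ID 214162, chr9:44803355-44881352), which with its partner menin keeps developmental genes active, had 117, 117 and 131 CPM at 48 h and 162, 162 and 157 CPM at 0 h, a log2 fold change of -0.40 ± 0.08 (SE, adjusted p = 0.00756). Kmt2d (gene ID 381022, chr15:98831669-98874077), a monomethylase of enhancers, had 199, 182 and 216 CPM at 48 h and 243, 301 and 308 CPM at 0 h, a log2 fold change of -0.52 ± 0.12 (SE, adjusted p = 0.0113). The 0 h libraries of Kmt2d varied more than those at 48 h. Kmt2c (gene ID 231051, chr5:25271795-25498855), its paralogue in the same kind of complex, had 74.8, 67.2 and 75.4 CPM at 48 h and 83.8, 96.2 and 104 CPM at 0 h, a log2 fold change of -0.39 ± 0.10 (SE, adjusted p = 0.0178). Kmt2d missed the threshold on leaving out 48 h replicate 2 (adjusted p = 0.0528) or 0 h replicate 3 (0.057), in a range of 5.01e-04 to 0.057. Kmt2c missed the threshold on leaving out 48 h replicate 2 (0.0853), 48 h replicate 3 (0.0574), 0 h replicate 2 (0.0645) or 0 h replicate 3 (0.083), in a range of 0.00381 to 0.0853.

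Kmt2b, the closest paralogue of Kmt2a, just missed the threshold at a log2 fold change of -0.32 ± 0.11 (SE, adjusted p = 0.0502). It had 146, 137 and 143 CPM at 48 h and 155, 174 and 201 CPM at 0 h, with no overlap between groups, and 5 of 12 alternatives called it. Kmt2e, an MLL family protein with little or no enzyme activity of its own, had 135, 161 and 160.3 CPM at 48 h and 151, 167 and 169 CPM at 0 h, with overlapping groups. Prdm9, the methyltransferase that marks recombination sites in germ cells, had 2.3, 1.32 and 2.53 CPM at 48 h and 2.57, 2.96 and 2.9 CPM at 0 h, a log2 fold change of -0.49 ± 0.30 (SE, adjusted p = 0.237).

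Of the 6 H3K4 cofactors 1 was lower and the others did not pass the test, a share close to the 15.8% of all genes. Wdr5 (gene ID 140858, chr2:27515147-27536535), the subunit that joins the catalytic protein to the core, had 69.5, 79.3 and 74.2 CPM at 48 h and 90.8, 88.2 and 90.2 CPM at 0 h, a log2 fold change of -0.27 ± 0.08 (SE, adjusted p = 0.0297). Its 3 libraries at 0 h were close together and all above 48 h. The call failed on leaving out 48 h replicate 3 (0.0972), 0 h replicate 1 (0.0646), 0 h replicate 2 (0.0874) or 0 h replicate 3 (0.109), in a range of 0.00438 to 0.109. The other core subunits had log2 fold changes of -0.23 (Rbbp5), -0.08 (Ash2l) and 0.01 (Dpy30). Cxxc1, the SET1 subunit that reads unmethylated CpG, had 81.5, 80.9 and 81.4 CPM at 48 h and 93.1, 92.6 and 95.3 CPM at 0 h and an adjusted p of 0.0513. Men1, which encodes menin, was the only member whose 48 h libraries all lay above 0 h, with 117, 117 and 117 CPM at 48 h and 107, 88.9 and 102 CPM at 0 h, a log2 fold change of 0.23 ± 0.09 (SE, adjusted p = 0.0745). Men1 was called higher by DESeq2 and without 0 h replicate 1, and in no other alternative.

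Of the 5 H3K4 erasers 1 was lower, beside 15.8% of all genes. Kdm1b (gene ID 218214, chr13:47043373-47085279), the flavin enzyme that clears H3K4 methylation for imprinting in oocytes, had 16.9, 15.8 and 20.8 CPM at 48 h and 23.7, 25.8 and 23.4 CPM at 0 h, a log2 fold change of -0.45 ± 0.12 (SE, adjusted p = 0.0229). The gene overlaps Dek, and the use of strand in counting is not given, so reads shared with Dek cannot be told apart. Its call failed on leaving out 48 h replicate 2 (0.0898), 0 h replicate 2 (0.0931) or 0 h replicate 3 (0.0623), in a range of 0.00621 to 0.0931. Kdm1a, the flavin enzyme of the CoREST complex, had 122, 148 and 151 CPM at 48 h and 149.9, 141 and 140.2 CPM at 0 h, with overlapping groups. The JmjC enzymes Kdm5a, Kdm5b and Kdm5c, which act on trimethylated H3K4, had log2 fold changes of -0.09, -0.17 and 0.03.

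Markers of oocytes were also lower at 48 h, with 5 of 12 tested called lower and a summed level of 132.9, 58.05 and 61.3 CPM at 48 h and 175.4, 197.3 and 193.9 CPM at 0 h. The oocyte genes Figla and Sohlh1 were too low to be tested. Kdm1b and Prdm9 are both known from oocytes or germ cells. The median log2 level of the 12 oocyte markers relative to the 0 h mean was -0.07, -1.53 and -1.63 at 48 h. At 0 h it was -0.10, 0.11 and -0.05, so 48 h replicate 1 lay within the 0 h range. That library also had the highest oocyte sum at 48 h. It had 16.9 CPM of Kdm1b and 2.3 CPM of Prdm9, each between the values of the other 48 h libraries. In bulk samples, fewer cells of a type and less RNA per cell cannot be told apart, and the part of oocyte RNA in these values was not tested.

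Of the 10 H3K9 genes tested, 4 were lower at 48 h, 3 of them writers, beside 15.8% of all genes. Setdb1 (gene ID 84505, chr3:95323525-95357202), which trimethylates H3K9 at retroviral elements with Trim28, had 93.6, 98.7 and 95.5 CPM at 48 h and 125, 127 and 127 CPM at 0 h, a log2 fold change of -0.39 ± 0.07 (SE, adjusted p = 0.00446). Replicates lay close together in both groups, and the call held in all 12 alternatives. Setdb1 overlaps Cers2, whose reads cannot be told apart from it without strand. Ehmt2 (gene ID 110147, chr17:34898463-34914073) and Ehmt1 (gene ID 77683, chr2:24790769-24919643) encode G9a and GLP, which work as a pair to dimethylate H3K9 in euchromatin. Ehmt2 had 204, 212 and 214 CPM at 48 h and 251, 247 and 267 CPM at 0 h, a log2 fold change of -0.28 ± 0.08 (SE, adjusted p = 0.0315). Ehmt1 had 82.5, 94.7 and 95.3 CPM at 48 h and 104, 111 and 110.1 CPM at 0 h, a log2 fold change of -0.25 ± 0.08 (SE, adjusted p = 0.0486). Both partners were lower by a similar amount, and both calls were marginal. Ehmt2 missed the threshold on leaving out 48 h replicate 2 (0.0903), 48 h replicate 3 (0.092), 0 h replicate 2 (0.0812) or 0 h replicate 3 (0.144), in a range of 0.00421 to 0.144. Ehmt1 was called in 3 of 12 alternatives and was lost on leaving out any single library (0.0595 to 0.162).

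The heterochromatin enzymes Suv39h1 and Suv39h2, which trimethylate H3K9 at pericentric repeats, were not called, with log2 fold changes of -0.09 and 0.12. Suv39h1 had 49.3, 67.2 and 62.1 CPM at 48 h and 69.2, 60.4 and 61.3 CPM at 0 h, with 48 h replicate 1 the lowest of the 6 libraries. Among the 5 H3K9 erasers, Kdm3a (gene ID 104263, chr6:71588970-71632990), a demethylase of mono- and dimethylated H3K9 that responds to hypoxia, had 81.2, 90.3 and 87.9 CPM at 48 h and 96.3, 109 and 108 CPM at 0 h. Its log2 fold change was -0.27 ± 0.09 (SE, adjusted p = 0.039), and 5 of 12 alternatives kept the call. It missed the threshold on leaving out 48 h replicate 1 (0.058), 48 h replicate 2 (0.0771), 48 h replicate 3 (0.11), 0 h replicate 2 (0.149) or 0 h replicate 3 (0.15), in a range of 0.00762 to 0.15. Kdm3b, its paralogue, and Kdm4a, Kdm4b and Kdm4c, which act on trimethylated H3K9 and H3K36, did not pass the test, with log2 fold changes of -0.17, -0.11, -0.06 and -0.07.

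Among the 6 H3K27 genes 1 was lower, a share close to the 15.8% of all genes. Ezh1 (gene ID 14055, chr11:101191115-101226463), the PRC2 enzyme of non-dividing and differentiated cells, had 48.7, 41.5 and 41 CPM at 48 h and 68.2, 73.4 and 66.5 CPM at 0 h, a log2 fold change of -0.67 ± 0.09 (SE, adjusted p = 0.00152). The highest 48 h library was well below the lowest 0 h library. Ezh2, the PRC2 enzyme of dividing cells, had 55.4, 73.8 and 71.8 CPM at 48 h and 72.2, 66.2 and 62.6 CPM at 0 h, with overlapping groups and a log2 fold change of 0.00 ± 0.12 (SE, adjusted p = 0.991). The PRC2 core subunits Eed and Suz12 had log2 fold changes of -0.06 and 0.04, and the erasers Kdm6a, an X-linked gene, and Kdm6b, a signal-responsive one, had -0.01 and -0.03. None of these 4 was called in any alternative.

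The ratio of Ezh1 to Ezh2, on a log2 scale of counts plus 0.5, does not depend on library scaling. It was -0.19, -0.83 and -0.81 at 48 h and -0.08, 0.15 and 0.09 at 0 h, so the groups did not overlap, and 48 h replicate 1 stood near the 0 h values. The difference in means was -0.66, with an exact two-sided permutation p of 0.1, the smallest that 3 against 3 allows, and 0.275 adjusted over the 11 paralogue pairs. These pairs were chosen after values were seen, and ratios are not corrected for length. Kdm1b over Kdm1a (-0.42), Kdm2b over Kdm2a (-0.33) and Kmt2c over Kmt2d (0.13) also did not overlap. Ehmt1 over Ehmt2, in contrast, differed by 0.02 with overlapping groups.

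Cell cycle genes were read in the same libraries. Of 20 tested, 6 were higher at 48 h by edgeR and 12 by DESeq2, beside 16.0% of all genes by edgeR. Fold changes were above 0 in 18, and edgeR gave 12 an unadjusted p under 0.05. The median log2 level of the 20 relative to the 0 h mean was 0.05, 0.48 and 0.40 at 48 h. At 0 h it was 0.17, -0.05 and -0.12. Ezh2 was likewise lowest in replicate 1 among the 48 h libraries. The part of cell division in the Ezh1 and Ezh2 values was not tested.

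Of the 7 H3K36 genes 1 was lower, again a share close to the 15.8% of all genes. Kdm2b (gene ID 30841, chr5:122870664-122989270), a demethylase that brings a Polycomb complex to CpG islands, had 29.5, 34.7 and 32.8 CPM at 48 h and 43.8, 40.6 and 41.8 CPM at 0 h, a log2 fold change of -0.38 ± 0.09 (SE, adjusted p = 0.0149). Of the 6 libraries left out in turn, 0 h replicate 3 ended the call (adjusted p = 0.0576), in a range of 0.00285 to 0.0576 over all alternatives. Its paralogue Kdm2a had 140.0, 161 and 164 CPM at 48 h and 152, 164 and 165 CPM at 0 h, with overlapping groups. The 5 writers did not pass the test: Setd2, which trimethylates H3K36 behind RNA polymerase II, had a log2 fold change of -0.10, the dimethylases Nsd1, Nsd2 and Nsd3 had -0.04, 0.02 and -0.18, and Ash1l had -0.01. Dot1l (gene ID 208266, chr10:80755101-80795461), the H3K79 methyltransferase, had 106, 117 and 120.0 CPM at 48 h and 134, 147 and 154 CPM at 0 h, a log2 fold change of -0.34 ± 0.09 (SE, adjusted p = 0.0201). The Dot1l call failed on leaving out 48 h replicate 2 (0.0535), 48 h replicate 3 (0.0507), 0 h replicate 2 (0.0749) or 0 h replicate 3 (0.0982), in a range of 0.00457 to 0.0982.

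**Figure D2:**
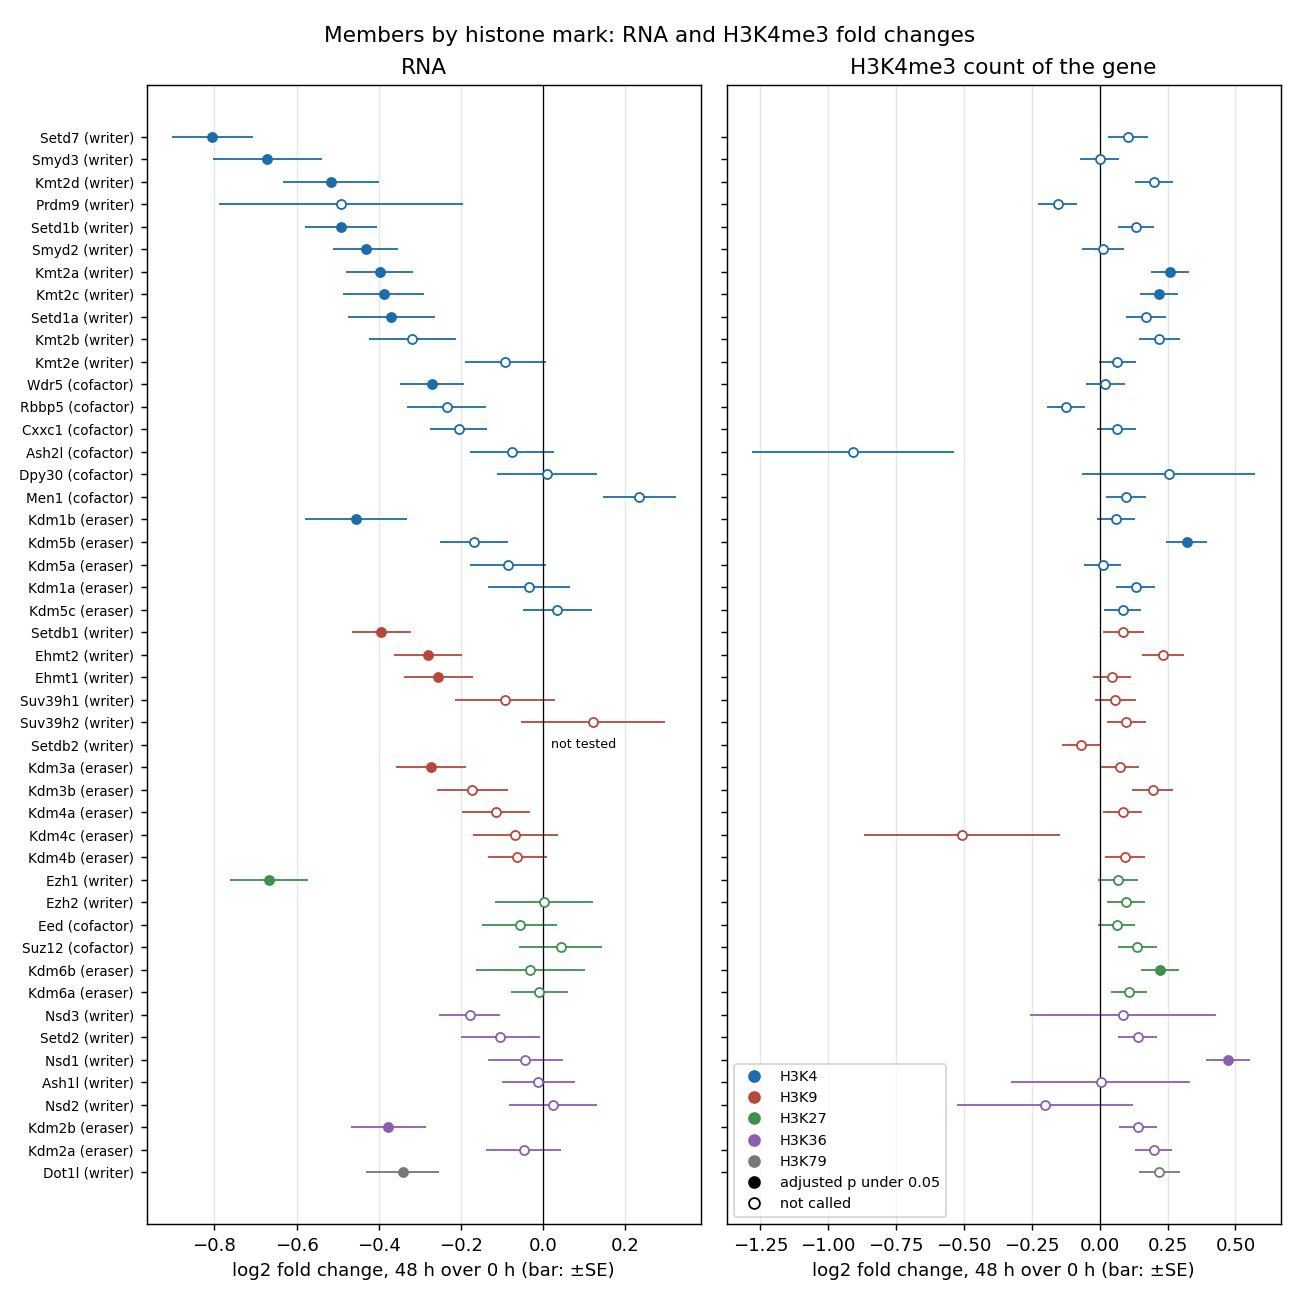
Log2 fold change (48 h over 0 h, bars ± SE) of each member in RNA on the left and H3K4me3 on the right, coloured by histone lysine, with filled points for members at an adjusted p under 0.05. The RNA points of all 11 H3K4 writers lie below 0, and the H3K4me3 points of 41 of 47 members lie above 0 (35 with library size alone).

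Some markers of other cell types differed between groups as well. Endothelial markers were higher in 11 of 12 genes, with a summed level of 780.6, 251.1 and 312.5 CPM at 48 h and 131.9, 133.7 and 140 CPM at 0 h. The 48 h replicate with the most, replicate 1, also had the lowest members: the median log2 level of the 46 members relative to the 0 h mean was -0.27, -0.12 and -0.12 at 48 h. For the 11 H3K4 writers it was -0.38, -0.46 and -0.39. Theca markers were lower in 3 of 9 genes, smooth muscle markers higher in 2 of 8, and surface epithelium markers lower in 1 of 7. Of all genes 15.8% were lower and 16.0% higher. Fold changes were above 0 in 3 theca and 2 surface epithelium markers, and DESeq2 called 1 of each list higher. Of the smooth muscle markers 4 were below 0. Their sum was 492.3, 198.1 and 252.9 CPM at 48 h and 322.9, 304.6 and 296.5 CPM at 0 h. Immune markers were called in 0 of 9 genes by edgeR or DESeq2, and 0 had an unadjusted p under 0.05. Red cell markers were higher in 3 of 3 tested, with a summed level of 544.2, 164.1 and 685.5 CPM at 48 h and 90.1, 68.5 and 129.5 CPM at 0 h, while the 4 globin genes of that list were at 0 in every RNA library. The part of these cells in the members' values was not tested.

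H3K4me3, the mark that several of these enzymes write or erase, was higher at 48 h over 5 members: Nsd1, Kdm5b, Kmt2a, Kmt2c and Kdm6b. It was measured as ChIP-seq counts per gene, over a window that the sources used here do not give. Of 24476 genes tested, 2062 were called (8.42%), 1554 higher at 48 h (6.35%) and 508 lower (2.08%), or 945 and 862 with library size alone. Each library is scaled to its own total and no spike-in is mentioned, so a change in the total amount of the mark was not measured. Of the 47 members, 5 were higher at 48 h and 0 were lower. At an unadjusted p under 0.05, 12 were higher and 2 lower, and DESeq2 called 2 higher, Kdm5b and Kmt2a, and 0 lower. The members' median log2 fold change was 0.09, against -0.00143 over all genes, and 28 members had both 48 h libraries above both 0 h libraries, against 26.5% of all genes. The reverse held in 5 members, against 22.8%, and 6 members were below 0 (12 with library size alone), against 50.3% of all genes. Of the 12141 genes averaging 20 CPM or more, 11.2% were higher, 2.96% were lower and the median was 0.05. That limit was chosen after values were seen, and 41 of the 47 members reached it. The shares without overlap and below 0 were not computed for genes of this level. The members' lean can therefore not be set apart from a lean of such genes. Markers of cell types moved in the same assay: of 12 granulosa markers 7 were higher and 2 lower, and of 7 surface epithelium markers 3 were lower, with a summed level of 84.4 and 86.6 CPM at 48 h and 114.1 and 107.4 CPM at 0 h. Of 9 theca markers 1 was higher and 1, Cyp17a1, was lower, and of 8 smooth muscle markers Acta2 was lower. Markers of oocytes (14), endothelium (12), immune cells (9) and red cells (7) had 0 called by edgeR or DESeq2 and 0 at an unadjusted p under 0.05. The part of these cells in the members' H3K4me3 was not tested.

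Nsd1 (gene ID 18193, chr13:55209782-55318325) had the largest called difference in H3K4me3, with 103 and 81.5 CPM at 48 h and 62.2 and 71.1 CPM at 0 h, a log2 fold change of 0.47 ± 0.08 (SE, adjusted p = 6.09e-05). Its RNA did not pass the test, at 227, 242 and 256 CPM at 48 h and 233, 260.1 and 254 CPM at 0 h. In the same assay Kdm5b (gene ID 75605, chr1:134560178-134632878), itself an eraser of H3K4me3, had 156 and 127 CPM at 48 h and 109 and 118 CPM at 0 h, a log2 fold change of 0.32 ± 0.08 (SE, adjusted p = 0.00384). In both genes 48 h replicate 1 was the highest library by a clear margin. The H3K4me3 of Kmt2a was 157 and 142 CPM at 48 h and 125 and 124 CPM at 0 h, a log2 fold change of 0.26 ± 0.07 (SE, adjusted p = 0.0113). Kmt2c had 212 and 188 CPM at 48 h and 168 and 176 CPM at 0 h, a log2 fold change of 0.22 ± 0.07 (SE, adjusted p = 0.0415). Kdm6b (gene ID 216850, chr11:69398508-69420367) had 132 and 135 CPM at 48 h and 111 and 119 CPM at 0 h, a log2 fold change of 0.22 ± 0.07 (SE, adjusted p = 0.0357). The calls fell on 2 H3K4 writers, 1 H3K4 eraser, 1 H3K27 eraser and 1 H3K36 writer, and on no H3K9 gene. The 5 of 47 called were close to the 11.2% higher among genes averaging 20 CPM or more, so this split is a description. Ehmt2, an H3K9 writer, just missed the threshold at a log2 fold change of 0.23 ± 0.08 (SE, adjusted p = 0.0501). Without a filter edgeR called it (adjusted p = 0.0438).

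These calls rested on few libraries. Leaving out 0 h replicate 1 left 0 members called, with 282 of all genes called by edgeR. Leaving out 48 h replicate 1 left 1, Nsd1, and leaving out 0 h replicate 2 gave 4. Without 48 h replicate 2 there were 10. Nsd1 and Kdm5b were each called in 8 of 10 alternatives. Nsd1 was lost with DESeq2 (adjusted p = 0.143) and without 0 h replicate 1 (0.22), in a range of 4.72e-12 to 0.22, and Kdm5b without 48 h replicate 1 (0.395) or 0 h replicate 1 (0.422), in a range of 7.96e-06 to 0.422. Kmt2a was called in 6 of 10, in a range of 0.00362 to 0.289, and leaving out 48 h replicate 1 (0.289), 0 h replicate 1 (0.28) or 0 h replicate 2 (0.091) ended its call. Kmt2c was called in 2 of 10 and lost with DESeq2 size factors (0.0812), library size alone (0.057) and DESeq2 (0.106), in a range of 0.013 to 0.6. Its call also ended on leaving out 48 h replicate 1 (0.6), 0 h replicate 1 (0.547) or 0 h replicate 2 (0.0881). Kdm6b was called in 1 of 10 and lost under the same scalings (0.0722 and 0.0581), with DESeq2 (0.111) and on leaving out any single library (0.0666 to 0.587). Kdm6b lies within 5000 bp of Cyb5d1 and Naa38, whose H3K4me3 counts were within 20% of its own, and signal shared with them cannot be told apart. The same holds for Kmt2c and the lncRNA 4831440E17Rik, which lies within 5000 bp and had H3K4me3 counts within 20% of those of Kmt2c.

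Kmt2a and Kmt2c were called in both assays, lower in RNA and higher in H3K4me3, though in H3K4me3 Kmt2a was called in 6 of 10 alternatives and Kmt2c in 2 of 10. With 0 members called higher in RNA and 0 called lower in H3K4me3, no member could be called in the same direction in both. A further 15 members were lower in RNA without a call in H3K4me3, 3 were higher in H3K4me3 without a call in RNA, and 26 were called in neither. In 35 of the 46 members tested in RNA, the RNA fold change was below 0 and that of H3K4me3 above 0. Each assay alone had 39 of the 46 below 0 (RNA) or 41 above 0 (H3K4me3). The count of 35 therefore does not itself show a link between the assays, and the share over all genes was not computed. Across the 46 members the Spearman correlation of the fold changes was 0.01, and it was 0.11 over the 40 averaging 20 CPM or more of H3K4me3. The members share libraries within each assay, so these are descriptions.

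**Figure D3:**
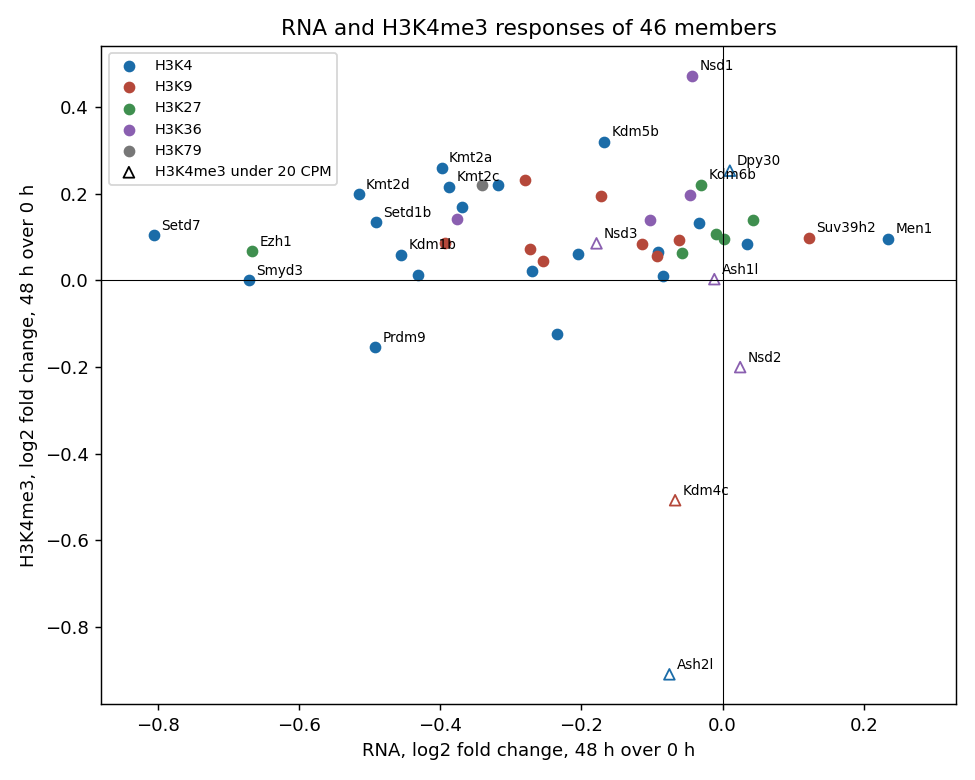
Log2 fold change (48 h over 0 h) of RNA on the horizontal axis and of H3K4me3 on the vertical axis, 1 point per member for the 46 tested in both, coloured by histone lysine, with open triangles for H3K4me3 under 20 CPM. In 35 members RNA lies below 0 and H3K4me3 above 0, and Kmt2a and Kmt2c are among them. Of the 46, 39 lie below 0 in RNA and 41 lie above 0 in H3K4me3.

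H3K4me3 did not pass the test at Setd7, Smyd2, Smyd3 and Ezh1, all of them lower in RNA. The H3K4me3 of Setd7 was 109.8 and 97.1 CPM at 48 h and 91.1 and 102 CPM at 0 h. That of Smyd2 was 58.3 and 52.9 CPM at 48 h and 51.7 and 58.9 CPM at 0 h and that of Smyd3 66.3 and 68.9 CPM at 48 h and 69.8 and 65.2 CPM at 0 h, with overlapping groups in each. Ezh1, the largest RNA difference outside H3K4, had 61.8 and 57.1 CPM at 48 h and 54.8 and 58.8 CPM at 0 h, again with overlap. None of these 4 was called in any alternative, with log2 fold changes of 0.10, 0.01, 0.00 and 0.07.

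H3K4me3 counts of the members fell into 2 ranges. In 41 members the mean over the 4 libraries was 47.1 to 290.4 CPM. In Ash2l, Dpy30, Kdm4c, Nsd2, Nsd3 and Ash1l it was 1.39 to 1.98 CPM, within the level of the 5129 genes without RNA, whose median was 1.56 CPM and whose upper quartile was 2.19 CPM. The RNA of all 6 was well above 0, from 135, 167 and 173 CPM at 48 h and 160.3, 157 and 149 CPM at 0 h for Nsd2 to 23.5, 23.8 and 28.5 CPM at 48 h and 26, 27.3 and 25.9 CPM at 0 h for Kdm4c. For Kdm4c, the outer start printed above holds 0 CpG pairs and the inner start 28, and for Dpy30 the outer start holds 1 and the inner starts 30, 34 and 39. Kdm3a, whose H3K4me3 averaged 92.9 CPM, has an innermost start with 0 and outer starts with 40 and 24. Which start was counted is not given, so a low count here is a value of the table and not a measure of the mark at the gene.

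Setdb2 and Prdm9 showed the reverse, H3K4me3 with few RNA counts. Setdb2, an H3K9 methyltransferase, had 86.3 and 85.1 CPM at 48 h and 87.5 and 92.4 CPM at 0 h of H3K4me3 and at most 0.435 CPM of RNA in any library. The counts of its window were identical to those of the overlapping gene Gm45935 and within 20% of those of its neighbour Cab39l, which had 24.3 CPM of RNA. Gm45935 had 0 CPM of RNA. How reads were counted is not given, so RNA reads shared by Setdb2 and Gm45935 cannot be told apart. The low RNA of Setdb2 is thus a value of the counts and not a measure of its expression. Prdm9 had 64.6 and 68.7 CPM at 48 h and 74.1 and 74.2 CPM at 0 h of H3K4me3 and at most 2.96 CPM of RNA.

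Genes that work beside the members were mostly lower where they changed in RNA. Over 9 lists of related genes, 98 were tested and 26 called, 22 lower and 4 higher at 48 h, beside 15.8% and 16.0% of all genes. Of 13 other H3K4 complex subunits, 4 were lower: Ogt, the enzyme that adds N-acetylglucosamine to proteins and binds SET1 complexes, had 312, 248 and 272 CPM at 48 h and 517, 584 and 585 CPM at 0 h, a log2 fold change of -1.02 ± 0.11 (SE, adjusted p = 0.000621). Paxip1, a subunit of the Kmt2c and Kmt2d complexes, fell by 0.52 and Phf21a, a CoREST reader of unmethylated H3K4, by 0.35 on the log2 scale. The list's median was -0.08, and 9 of its 13 genes did not pass the test. Leaving out a single library gave 13 (0 h replicate 3), 14 (48 h replicate 3), 16 (48 h replicate 2), 17 (0 h replicate 2) or 29 (48 h replicate 1) genes called over the 9 lists. The 29 were 9 higher and 20 lower. DESeq2 gave 6 higher and 21 lower, and library size alone gave 3 higher and 50 lower.

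Of 17 subunits of PRC1, the Polycomb complexes that ubiquitinate H2A, 5 were lower, with a median of -0.18. Cbx7, a reader of trimethylated H3K27, had the largest called difference of the 9 lists, with 11.3, 10.3 and 9.84 CPM at 48 h and 19.4, 28.4 and 25.8 CPM at 0 h, a log2 fold change of -1.23 ± 0.16 (SE, adjusted p = 0.000992). Pcgf6 fell by 0.71 and Pcgf2 by 0.54 on the log2 scale. Of 8 other PRC2 subunits only Phf1 was lower (-0.36). Of 8 H3K9 readers and partners, 0 were called by edgeR, with 2 lower and 1 higher at an unadjusted p under 0.05 and 1 lower and 1 higher by DESeq2.

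Among the other enzymes, 1 of 9 further demethylases was lower (Kdm7a, -0.35), 3 of 12 further lysine methyltransferases (Smyd5, -0.66, Setd4, -0.63, and Kmt5c, -0.36), and 4 of 8 arginine methyltransferases, led by Prmt3 (-0.58), Carm1 (-0.43) and Prmt7 (-0.32). Medians of these 3 lists were -0.27, -0.26 and -0.25. Lists of genes tied to the cofactors differed in direction. In the methyl donor cycle 3 of 11 genes were lower, among them Mat2a, which makes S-adenosylmethionine outside the liver, with 184, 179 and 172 CPM at 48 h and 226, 216 and 255 CPM at 0 h, a log2 fold change of -0.38 ± 0.09 (SE, adjusted p = 0.0146). Mtr and Mtrr, of methionine synthesis, were the others. In the list of 2-oxoglutarate and its inhibitors 4 of 12 were higher and 1 lower. Idh1, which makes 2-oxoglutarate in the cytosol, had 454, 429.9 and 453 CPM at 48 h and 218, 212 and 199 CPM at 0 h, a log2 fold change of 1.09 ± 0.09 (SE, adjusted p = 0.00019), and Ogdh and Sdhb rose by 0.54 and 0.51. Idh2, Idh3a, Idh3b, Idh3g and Glud1 of the same list were not called, with log2 fold changes of -0.23, -0.03, -0.12, -0.11 and 0.27.

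**Figure D4:**
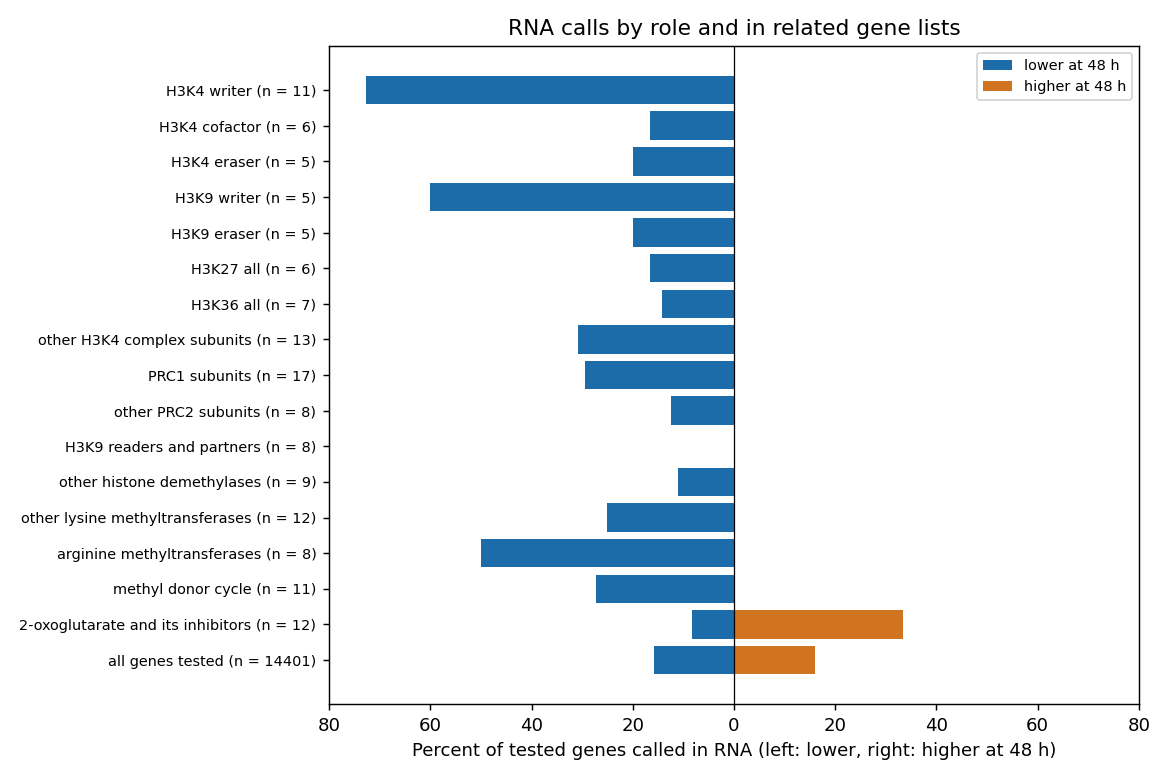
Percent of tested genes called in RNA in each group of members and each related list, lower at 48 h to the left and higher to the right, with the number tested in the label and all 14401 genes in the last row. Dot1l, the 1 gene of H3K79, has no row of its own. Of H3K4 writers 8 of 11 and of H3K9 writers 3 of 5 are lower, beside 15.8% of all genes, and the 2-oxoglutarate list (4 of 12) is the only list with genes called higher.

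In H3K4me3, 11 of the 102 genes of these lists tested were called, all of them higher (10.8%), close to the 11.2% higher among all genes averaging 20 CPM or more. The largest was Prdm16, a methyltransferase-related zinc finger protein (log2 0.53, adjusted p = 8.48e-05), followed by Rcor2, a CoREST subunit (0.44), Wiz, a partner of G9a and GLP (0.38), and Mecom (0.36). Ring1, a ubiquitin ligase of PRC1, was higher in H3K4me3 (0.33, adjusted p = 0.00274) and lower in RNA (-0.39, adjusted p = 0.00905). Phf1, a PRC2 partner, likewise had 0.25 in H3K4me3 (adjusted p = 0.0281) and -0.36 in RNA (adjusted p = 0.0339).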

How the data were processed

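RNA-seq (3 libraries at 48 h, 3 at 0 h) and H3K4me3 ChIP-seq (2 at 48 h, 2 at 0 h) were compared within each assay, and 1 input DNA library was not analysed here. Both deposited tables give raw counts by Entrez gene ID (whole numbers, unequal library totals). The submitters' processing notes name, without role or order, FastQC 0.11.5, Picard, STAR, kallisto and sleuth for RNA, Trimmomatic, Bowtie2 2.2.9, MACS2 2.2 and ChIPseeker 1.18.0 for ChIP-seq, and build mm10. How reads were counted, strand use and the H3K4me3 window are not given in these sources. ChIP-seq columns were tied to a group by name, and the number ending the name serves as the replicate number.

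Symbols and coordinates came from RefSeq genes on GRCm38.p6, which named 24742 of 24809 RNA IDs and 24472 of 24541 H3K4me3 IDs. Counts were tested with edgeR 4.0.16 in R 4.3.3 (TMM, filterByExpr with a minimum count of 10, glmQLFit and glmQLFTest, Benjamini-Hochberg adjustment over all genes), with the code tested on simulated data. SE is the fold change divided by the root of the test statistic. DESeq2 1.42.0, other scalings and filters, a replicate block and leaving out each library were alternatives. Biological coefficients of variation were 0.141 (RNA) and 0.0465 (H3K4me3). Chi-square per degree of freedom between replicates was 1.69 or more, so no library repeated the counts of another in its group. These values cannot tell whether libraries were made from the same cells or animals, which the labels do not give. The members and gene lists were chosen with earlier results of these data known. All members are named, those called with every library. Of each further list, at most the 3 called genes with the largest fold change and a mean of at least 5 CPM are named. Cyp19a1, Foxl2, Ring1, Glud1, the uncalled Idh genes and genes with near-equal windows were named after their values were seen.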

Additional observations from a re-analysis of the deposited data

How the results depend on the processing

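RNA members called were 17 in the main test and 16 to 25 under other scalings, DESeq2 and a minimum of 10 counts, 14 without a filter (Ehmt1, Ehmt2 and Kdm3a were lost), and 7 to 17 when 1 library was left out. With library size alone in place of TMM, the median of all genes moved to -0.20, that of the members to -0.34, the related list genes called to 53 of 98, and the share of all calls that were higher to 26.8%, against 50.2% with TMM; no called member changed direction. Related list genes called were 13 to 29 when 1 library was left out, an alternative chosen after seeing the data. H3K4me3 members called were 5 in the main test, 3 with DESeq2 size factors, 2 with DESeq2, 3 with at least 10 counts in every library, 4 with library size alone (3 higher, and Prdm9 lower), 6 without a filter, and 0 to 10 when 1 library was left out. There, library size alone gave 52.3% of all calls higher, against 75.4%. Over all genes, RNA calls were 4585 and fell to 2956 without 0 h replicate 2 and 2882 without 0 h replicate 3. H3K4me3 calls over all genes were 2062, and 865 with DESeq2, 1181 without 48 h replicate 1, 282 without 0 h replicate 1 and 1252 without 0 h replicate 2. With the replicate number as a block, 10 members were called in RNA and 2 in H3K4me3, and 1280 genes in H3K4me3. The block ended the RNA calls of Kdm2b (adjusted p = 0.0503), Setd1a (0.055), Kdm1b (0.0561), Kdm3a (0.0647), Wdr5 (0.0774), Ehmt1 (0.082) and Ehmt2 (0.0867) and the H3K4me3 calls of Kmt2a (0.0797), Kdm6b (0.165) and Kmt2c (0.202). Deviations of same-numbered libraries from their group means correlated at -0.212, -0.149 and -0.127 in RNA and 0.0248 in H3K4me3. Such deviations cancel within a group, so these values cannot decide whether the numbers pair the libraries. With a library left out of H3K4me3, 1 group has a lone library that is assumed to vary like the other group. Low counts limit what can be said of Setdb2 and Prdm9 in RNA.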
